A study of Mus musculus with 4 samples.

Results

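Macrophages grown from the bone marrow of Batf2 knockout mice were compared with macrophages from wild-type mice before any stimulation. The comparison rests on 2 arrays of the 4 in the study, chosen by their labels: the untreated knockout culture and the untreated wild-type culture. The other 2 arrays read the same genotypes after 8 h with R848 (resiquimod) at 100 ng/ml, an imidazoquinoline agonist of the endosomal receptor TLR7, and they are used here only to show the same genes in another pair of cultures. All mice were male C57BL/6J, and the knockout is labelled Batf2-/-, with no Cre or transgene named. Femoral marrow was cultured in uncoated dishes with 3 ng/ml of macrophage colony-stimulating factor (M-CSF), the medium was changed on day 3 and the cells were harvested on day 5. The sources used here do not give how many mice stood behind a culture, their age or whether they were littermates. The sample labels do not say whether the untreated and R848 cultures of a genotype came from the same marrow. A difference seen in both pairs is therefore no replicate check of genotype. Each group has 1 array, so no difference below has a replicate check, no test was made, and genotype and culture cannot be told apart.

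Batf2 belongs to the BATF branch of the AP-1 transcription factors, which have a basic leucine zipper, and is itself induced by interferons. BATF factors bind DNA with JUN proteins and with interferon regulatory factors. Cells cultured from marrow with M-CSF become macrophages, while the starting marrow also holds stem cells, granulocyte precursors, basophils, mast cells, eosinophils, megakaryocytes and monocytes. Unstimulated macrophages carry a low level of interferon-stimulated transcripts, kept up by small amounts of type I interferon that signal through the JAK-STAT pathway and IRF9. They also carry some MHC class II, the molecules that show peptides to helper T cells.

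Values are given as a scaled signal, in which the 75th percentile of an array's probes, controls left out, is set to 100, and as the log2 difference of knockout minus wild type. A gene counts as higher or lower where the arrays differ by 2-fold or more, and as measured where either untreated array, or both, read its probe well above background. Signals of different genes come from different probes, so levels are set side by side within a gene only. Where the signals of a list are summed, the brightest probes weigh most. Such a sum is set side by side between arrays only. Of 20308 genes measured, 574 were higher in the knockout, which is 2.83%, and 651 were lower, which is 3.21%. The median over all genes was 0.06, and 82.4% of genes lay within 1.5-fold. Of all genes 8775 lay below zero and 11533 above, which stands beside each such count of list members. Brighter genes leaned to the lower side: of 9225 genes at or above the 75th percentile on the brighter array, 64 (0.694%) were higher and 201 (2.18%) were lower. Differences of 5-fold or more were found for 29 of these brighter genes on the lower side and 5 on the higher side. Over all measured genes the sides were equal, with 79 lower and 79 higher by 5-fold or more. Under normexp, a background correction that adds an offset to every signal, 117 genes were higher and 222 lower, so that 34.5% of the called genes were higher in place of 46.9%.

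**Figure D1:**
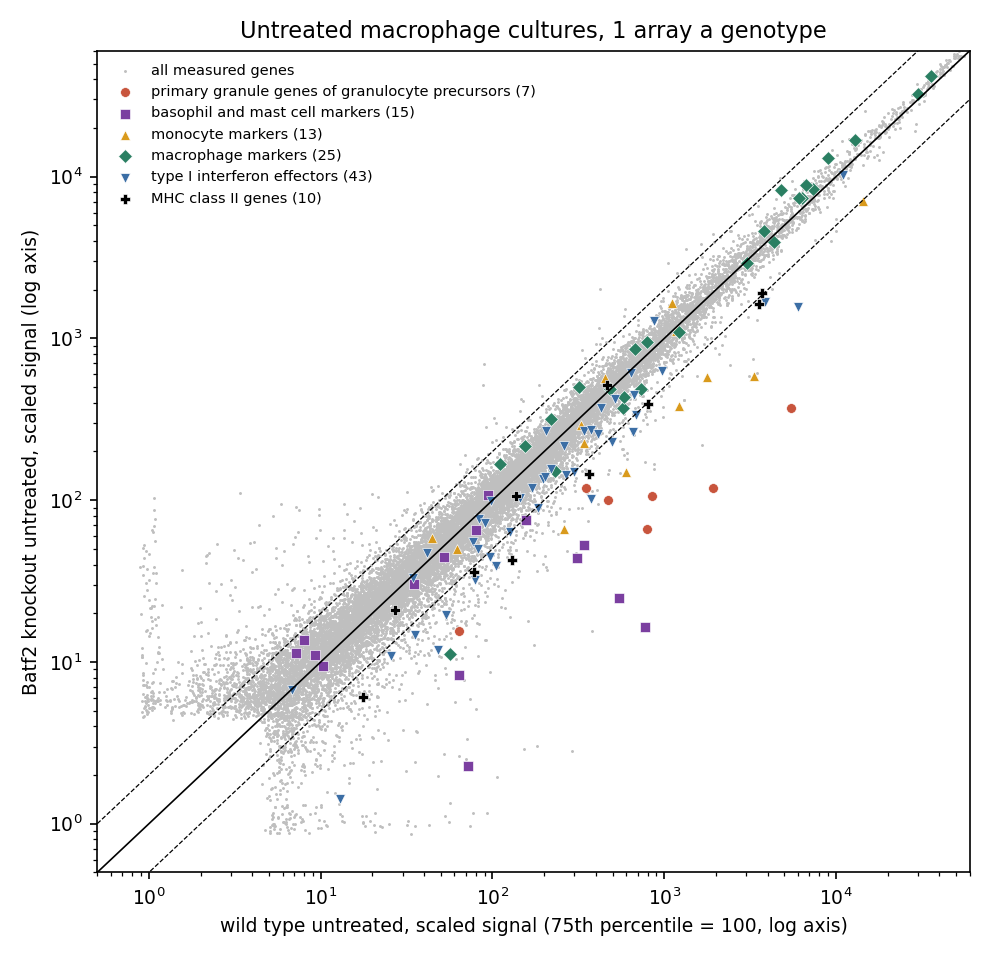
Scaled signal of every measured gene in untreated wild-type cells (horizontal, log axis) and untreated knockout cells (vertical, log axis), 1 array each, with 6 gene lists in colour and the number of measured members in brackets. The solid line marks equal signal and the dashed lines 2-fold, dim values are drawn as measured, and the 7 primary granule genes and several basophil, monocyte and MHC class II genes lie below the lower dashed line while most macrophage markers lie near or above the solid line.

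The processed signal at the 75th percentile was 278 on the wild-type array and 262 on the knockout array, and 69.6% and 71.4% of probes were well above background. No spot was saturated, and all 4 arrays lay on 1 slide read in 1 scan. The SD of the difference between 10 spots of 1 probe was 0.05 on the log2 scale (median of 281 probes), which covers error within an array and not the variation between cultures. Small areas of an array where many neighbouring probes were bright on that array alone were marked, and 123 of the 574 higher and 72 of the 651 lower genes have their probe in such an area. Where a called gene had several probes, they shared 1 direction in 60 of 85 higher and 134 of 180 lower genes.

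Batf2 was read by 1 probe, at a scaled signal of 12.3 in wild-type and 10.2 in knockout cells, a difference of 1.21-fold. With R848 the same probe read 35.7 in wild-type cells and was not well above background in the knockout, at least 6.20-fold lower. The sources used here do not say whether the probe lies within the deletion, so its untreated reading is no check of the genotype. Among 15 measured BATF, JUN, FOS and MAF genes 0 were higher and 0 lower untreated. The related factor Batf read 36.4 in wild type and 20.8 in knockout (-0.81), and Batf3, which cross-presenting dendritic cells need, read 11.9 and 13.7 (0.21).

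The marker lists for culture composition showed most macrophage transcripts within 2-fold between the arrays, and many transcripts of granulocyte precursors, basophils, progenitors and monocytes at lower signals in the knockout. Of 26 macrophage markers 25 were measured, all of them well above background on both arrays. None was at least 2-fold higher and 1 was lower, beside 2.83% and 3.21% of all genes. The median was 0.24 beside 0.06 over all genes. Adgre1, which encodes the surface protein F4/80, read 6302 in wild type and 7428 in knockout. Csf1r, the receptor of M-CSF, read 6091 and 7393. Itgam, which encodes CD11b, read 29980 and 32300. These defining markers were thus present on both arrays and differed by 0.24, 0.28 and 0.11 on the log2 scale. The scavenger receptor Cd36 read 4749 and 8311 (0.81), and the efferocytosis receptor Mertk read 154 and 217 (0.50). Of the 25 markers 8 lay below zero. The Fc receptor Fcgr1 stood at -0.64, the complement subunit C1qa at -0.62, the receptor Axl at -0.59 and the nuclear receptor Pparg at -0.42. The single marker of this list past 2-fold was Cd163, a receptor for haemoglobin complexes, at 56.7 in wild type and 11.2 in knockout (-2.34). Outside the list, the scavenger receptor Marco and the secreted macrophage protein Cd5l were lower too, and are given further below.

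In a bulk culture, fewer cells of a type and less RNA per cell cannot be told apart, and this holds for every marker list that follows. The primary granule genes, which precursors of neutrophils and monocytes express, had the lowest median of the 37 lists. All 7 measured genes were lower, beside 3.21% of all genes, and the median was -3.01. Mpo, the granule enzyme myeloperoxidase, read 5480 in wild type and 369.6 in knockout, a 14.8-fold lower signal. The serine protease genes Ctsg and Elane read 1921 against 119 and 797 against 66.4, at log2 differences of -4.01 and -3.58. Ms4a3, a marker of granulocyte and monocyte progenitors, read 850.5 and 106. The transcription factors Gfi1 and Cebpe, which drive granulocyte maturation, stood at -2.23 and -1.56, with the other probe of Gfi1 at -0.60. The summed scaled signal of the list was 9933 in wild type and 895 in knockout. On the arrays with R848 all 7 were lower again, with a median of -2.64, where 2.21% of 18636 genes were lower.

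Genes of later granules and mature neutrophils differed less. Of 14 measured, 0 were higher and 3 lower, beside 2.83% and 3.21% of all genes. Of the 14, 12 lay below zero, and the median was -0.54. Fcnb, a ficolin of immature granulocytes, read 333 and 90.0. The calcium-binding protein S100a8 read 9394 in wild type and 3978 in knockout, and the siderophore-binding Lcn2 read 10050 and 4585. The G-CSF receptor Csf3r stood at 0.14 and the collagenase Mmp8 at 0.45, so members of the list went both ways. Ly6g, the usual surface marker of neutrophils, was not measured.

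Of 15 measured basophil and mast cell markers 7 were lower and 0 higher. Lower members were 46.7% of the list beside 3.21% of all genes, while the median was -0.29 (-0.18 under normexp) and 4 members lay above zero. The basophil protease Mcpt8 read 776 in wild type and 16.5 in knockout, 47.0-fold lower, the largest measured decrease under the naming rule. Prss34, another basophil protease, read 542 and 24.9, or 21.7-fold lower. Cpa3, the carboxypeptidase of mast cell granules, read 72.0 in wild type and was not well above background in the knockout, a difference of -4.04 or beyond on the log2 scale. The stem cell factor receptor Kit read 342 and 53.0, Ms4a2, a chain of the IgE receptor, 63.8 and 8.31, and the transcription factor Gata2 312 and 43.9. Hdc, the enzyme that makes histamine, stood at -1.06 at its brightest probe, while its 3 probes ran from -1.06 to 0.26. Fcer1a, Tpsb2 and Il13 stood between -0.24 and -0.13. The chymase Cma1 and the cytokine Il4 stood at 0.78 and 0.67, both at dim probes, and Tpsab1 and Mcpt4 were not measured. The summed signal of the list was 2560.0 in wild type and 517 in knockout. With R848 6 of 13 measured members were lower, beside 2.21% of all genes.

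Eosinophil markers were lower in 6 of 9 cases, beside 3.21% of all genes, 0 were higher, and the median was -1.07, or -0.71 under normexp. Prg2, the major basic protein, read 767 in wild type and 173 in knockout, and Epx, eosinophil peroxidase, read 28.7 and 6.83. Siglecf, a surface lectin of eosinophils that some macrophages also carry, read 393 and 280 (-0.49). With R848 the list's median was 0.01. There 2 of 9 members were lower, Prg2 (-2.85) and Prg3 (-1.53), beside 2.21% of all genes.

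Stem and progenitor genes were lower in 9 of 15 cases, beside 3.21% of all genes, with a median of -1.52 that was -0.50 under normexp. Plac8, a gene of myeloid progenitors, read 1661 in wild type and 219 in knockout, 7.59-fold lower. Myb, a transcription factor of haematopoietic progenitors, read 305 and 47.1, and its 3 probes ran from -2.95 to -2.29. Cd34, the surface glycoprotein used to sort progenitors, read 107 and 29.4. Cd27 was lower as a bound (-2.00), its knockout signal being not well above background. Mycn (19.0 and 5.88) and Erg (19.1 and 5.26) were dim. Under normexp Cd27, Mycn, Erg and Meis1 stood between -0.69 and -0.46, while Plac8, Myb, Cd34, Adgrg1 and Angpt1 stayed past 2-fold. The single higher member, Hoxa9, read 11.8 and 58.7 at its brightest probe, yet its 3 probes ran from -0.90 to 2.32. Flt3 and Mecom stood at -0.20 and 0.01. Erythroid and megakaryocyte markers were lower in 5 of 14 cases, beside 3.21% of all genes (median -0.52, or -0.22 with no filter on dim probes). Among them were the platelet genes Gp9 (-1.52) and Ppbp (-1.51), the transcription factor Gata1 (-1.29) and the erythropoietin receptor Epor (-1.14). With R848 0 of the 14 were lower and the median was 0.02.

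Monocyte markers split by gene. Of 13 measured, 6 were lower, beside 3.21% of all genes, and 0 higher, with a median of -0.60. Ly6c2, which marks inflammatory monocytes, read 3326 in wild type and 588 in knockout, although its probe may also read the near-identical Ly6c1. Ccr2, the receptor that draws monocytes out of marrow, read 260 and 66.5. Cx3cr1, the fractalkine receptor, read 1216 and 382. Chil3, a chitinase-like protein of monocytes and macrophages, read 14340 and 7080, and F13a1, a clotting factor subunit, 598 and 149. The same 6 genes were lower with R848, where 2.21% of all genes were lower. Among them were F13a1 at -2.33 and Ccr2 at -2.53 as a bound, its knockout signal being not well above background. Fibronectin, Fn1, stood at 0.58 and Vcan at 0.40. The summed signal of the list was 25033 in wild type and 12817 in knockout, most of it from Chil3.

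Dendritic cell and lymphocyte lists had medians between -0.17 and 0.10, beside 0.06 over all genes. The median of conventional dendritic cell markers was -0.09, and ran from -0.45 with the mean over probes to 0.01 with no filter on dim probes. It was -0.33 in the authors' table and -0.30 without marked areas. Of these markers 1 of 12 was lower, beside 3.21% of all genes. This was the amino acid oxidase Il4i1, at 75.4 in wild type and 28.8 in knockout. Plasmacytoid dendritic cell markers had a median of -0.17 with 0 of 8 lower, and Siglech read 4121 and 3534 at a probe whose gene has others from -0.81 to 0.71. Beside 3.21% of all genes, 1 of 11 B cell markers was lower (Cd79b, list median 0.10), and 2 of 13 T and NK cell markers (list median -0.09). The latter were Nkg7, a granule protein of killer cells, at 126 and 18.9, and the receptor Klrk1 at 21.9 and 5.02. Stromal and endothelial markers had a median of -0.08, with 2 of 13 lower, beside 3.21% of all genes. These were Pecam1 (-1.65) and the VEGF receptor Kdr (-1.13 as a bound).

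Osteoclasts are bone-resorbing cells that arise from the same precursors when M-CSF is joined by a further signal. Their list showed 2 of 9 measured members higher and 1 lower, beside 2.83% and 3.21% of all genes (median 0.25). Acp5, tartrate-resistant acid phosphatase, read 1626 in wild type and 3847 in knockout, with its probe in a marked area. Ctsk, the collagen-degrading protease cathepsin K, read 18.5 and 44.8. The proton pump subunit Atp6v0d2 read 3250 and 5909 (0.86). The integrin Itgb3 read 3055 and 1362 at its brightest of 2 probes (-1.17), with the other at -0.08.

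Genes of dividing cells mostly stood slightly below zero. Past 2-fold were 0 of 45, beside 2.83% of all genes higher and 3.21% lower. Of 23 DNA replication genes 21 were below zero, with a median of -0.49. Over all genes 8775 of 20308 were below zero. The lowest were Cdc45 (-0.86 at its brightest probe, 0.22 at its other) and the helicase subunit Mcm7, at 1768 in wild type and 985 in knockout. Of 22 mitosis genes 21 were below zero, with a median of -0.35, and the proliferation marker Mki67 read 1074 and 858.

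**Figure D2:**
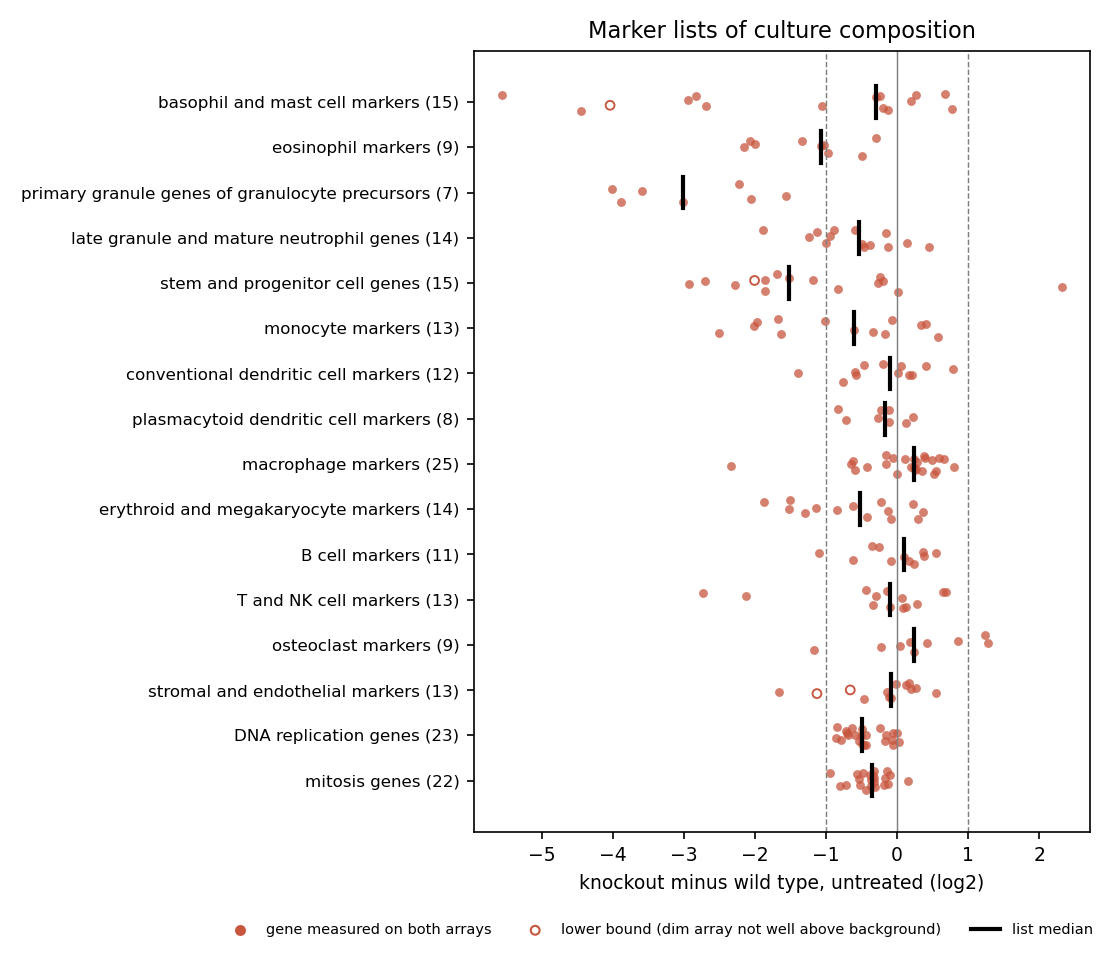
Log2 difference of knockout minus wild type, untreated, for each measured member (points) of 16 marker lists, with the list median as a black bar, dashed lines at 2-fold and open circles for lower bounds; vertical scatter within a list carries no value. The primary granule list has its median at -3.01 and the macrophage list at 0.24.

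Interferon tone was then described from the ligands down to the effectors. Of 17 interferon genes 8 were measured, 0 of them past 2-fold, with a median of 0.10. Ifnb1, Ifna4 and Ifng were not measured on the untreated arrays. Of 13 receptor and JAK-STAT genes 0 were past 2-fold and the median was -0.05. Ifnar1, a chain of the type I interferon receptor, read 14020 in wild type and 13510 in knockout. Stat2, which carries the signal to the nucleus, read 407 and 299.7 (-0.44) with its 2 probes on either side of zero. Nucleic acid sensors and adaptors had a median of 0.02 with 0 of 18 past 2-fold, and Tlr7, the receptor of R848, read 166 and 197.

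Among 9 interferon regulatory factors, Irf7 was the single member past 2-fold, and it was lower, beside 3.21% of all genes. Irf7, which amplifies type I interferon production and is itself induced by interferon, read 874 in wild type and 157 in knockout (-2.48), and its 2 probes stood at -2.48 and -2.15. Irf1 read 401 and 405, Irf8 479.6 and 484, and Irf9 286 and 218. With R848 Irf7 read 2056 and 1650 (-0.32).

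The effectors are genes that interferon induces, many of them through a promoter element with the core GAAANNGAAA (the interferon-stimulated response element, ISRE). The core was searched on both strands of the RefSeq windows from 250 bases before to 50 bases after a gene's start (GRCm38.p6). It was found in 18 of 38 windows of the effector list (47.4%) and in 3.44% of all 32851 windows. The stretches that hold it are shown for 3 effectors, with the core in capitals, as examples of the effector windows that hold it. Ifit3 (chr19:34583343-34583446, plus strand) has 2 copies, the farther 156 bases before the start. Ifit1 (chr19:34640755-34640843, plus strand) has 2 copies, and Isg15 (chr4:156200845-156200926, minus strand) has 3 overlapping copies that begin 78 bases before the start. On the strand printed, the copies of Ifit3 and Ifit1 read as the reverse complement of the core.
Ifit3: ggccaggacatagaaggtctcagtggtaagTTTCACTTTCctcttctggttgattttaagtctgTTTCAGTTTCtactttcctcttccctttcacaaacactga
Ifit1: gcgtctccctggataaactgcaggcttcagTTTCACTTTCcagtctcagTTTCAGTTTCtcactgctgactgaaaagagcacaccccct
Isg15: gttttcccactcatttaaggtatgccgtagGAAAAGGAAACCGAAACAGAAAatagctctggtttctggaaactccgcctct

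Of 43 measured effectors 15 were lower in untreated knockout cells, or 34.9%, beside 3.21% of all genes, and 0 were higher. The median was -0.59, and 39 of 43 lay below zero, beside 8775 of all 20308 genes. Oasl1, a relative of the RNA-sensing oligoadenylate synthetases, read 48.4 in wild type and 11.9 in knockout (-2.02). Ifit3, which binds viral RNA together with Ifit1, read 376 and 102 (-1.89). Ifit1 read 35.2 and 14.7 (-1.26), and Ifit2 105 and 39.0 (-1.43). The antiviral GTPase Mx1 read 53.5 and 19.4 at its brightest probe (-1.46), with its other probe at -0.21. Ifitm3, a membrane protein that blocks virus entry, read 3846 and 1685 (-1.19). Bst2, or tetherin, read 495 and 228 (-1.12). Rsad2, or viperin, read 680 and 337 at its brightest probe (-1.01), with its other probe at -0.18. Ly6e read 6002 and 1571 (-1.93). These genes were named because they were past 2-fold. Under normexp Ifit1, Mx1, Ifit2 and Rsad2 stood between -0.98 and -0.55, while Oasl1, Ifit3, Ifitm3 and Bst2 stayed past 2-fold. Of the 5 lower effectors with several probes, 4 had all of them below zero, and the exception was Xaf1, with probes from -1.10 to 0.32. Ifit3 and Ifit3b are near-identical and their probes may share signal.

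Other effectors differed less. Isg15, the ubiquitin-like modifier whose promoter is printed above, read 197 and 136 (-0.54). Oas1a read 170 and 120 (-0.51), and Oas2 83.4 and 76.4. Siglec1 stood at 0.01 at its brightest probe, with others down to -1.13. Parp9 read 876 and 1274 (0.54). The ISRE core stood in 6 of 13 windows of effectors that were lower and in 11 of 23 windows of measured effectors that were not, shares of 46.2% and 47.8%. Of the windows of all genes lower in the knockout 5.52% held it, and of those of all higher genes 2.75%. A second interferon element, TTCNNNGAA (the gamma-activated site, GAS), stood in 21.1% of effector windows and in 8.30% of all windows, on both strands and with overlaps with the ISRE core not removed.

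**Figure D3:**
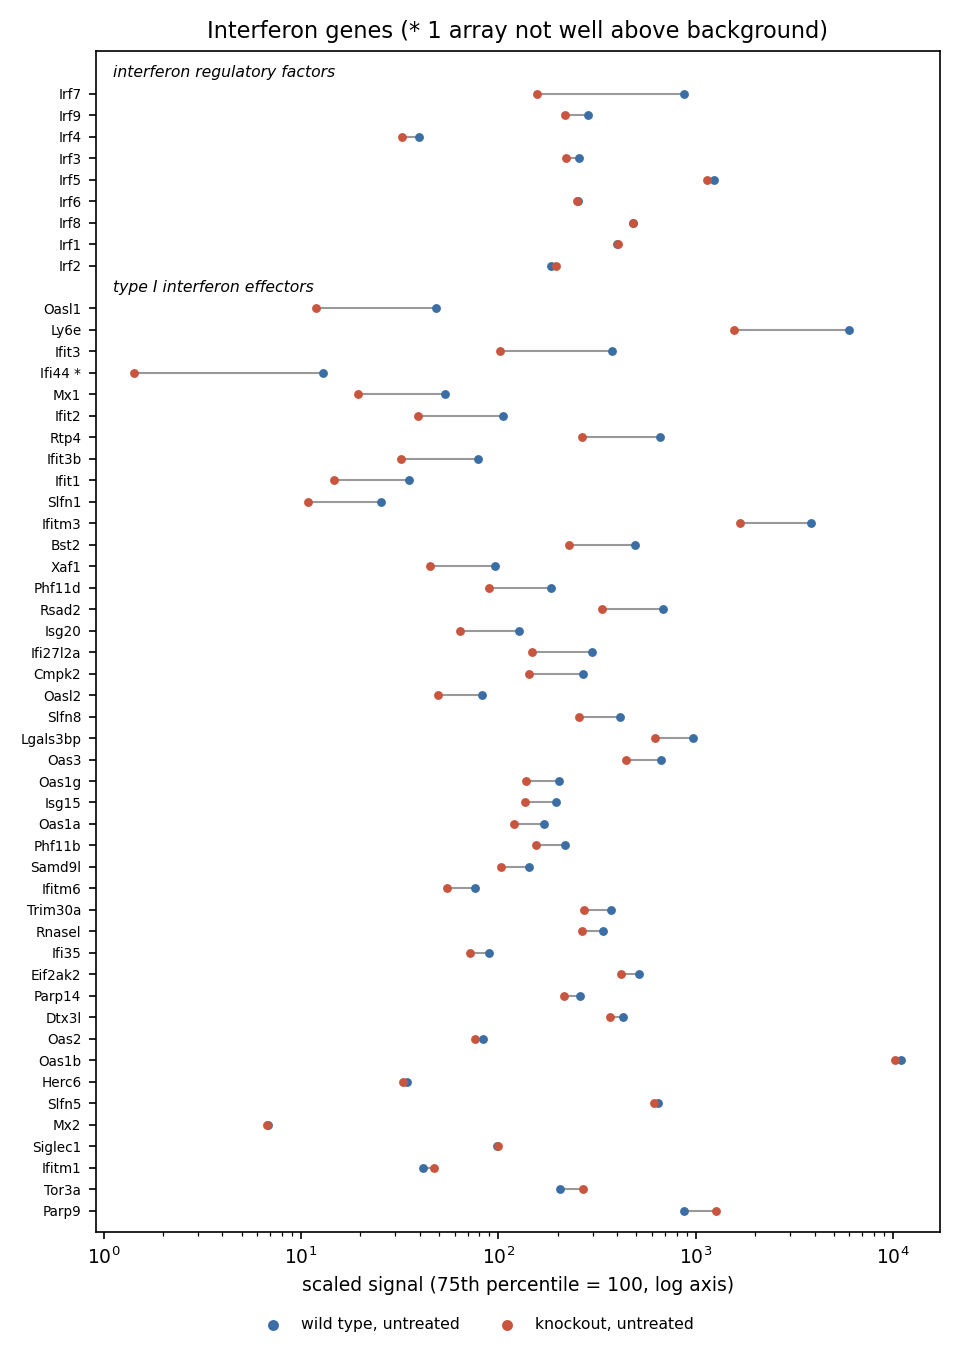
Scaled signal (log axis) of each measured interferon regulatory factor and type I interferon effector on the untreated wild-type array (blue) and the untreated knockout array (red), ordered by their difference, with an asterisk where the knockout array was not well above background. Irf7 is at 874 and 157, and the red point lies left of the blue for 39 of the 43 effectors.

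Genes that interferon gamma induces were lower in 3 of 17 cases, beside 3.21% of all genes, and higher in 0, with a median of -0.31 and 14 below zero. The chemokine Cxcl10 read 13.3 in wild type and was not well above background in the knockout, a difference of -1.60 or beyond. Gbp9, a guanylate-binding protein, likewise had a bound of -1.17. Gbp8 stood at -1.19 at its brightest probe and at 1.92 at its other probe, so it has no settled direction. The count of 3 thus rests on bounds and on a gene whose probes disagree, and is not read as an excess over all genes. The immunity-related GTPase Igtp read 211 and 117 (-0.85), and Gbp2 57.3 and 45.1 (-0.35).

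In the monocyte list 6 of 13 members were lower as well, with a summed signal of 25033 in wild type and 12817 in knockout, and its part in the difference of the effectors was not tested. Plasmacytoid dendritic cells make large amounts of type I interferon, and 0 of 8 of their markers were past 2-fold. Their summed signal of 4836 and 4293 is mostly that of Siglech, whose probes disagree, so it gives no direction for these cells. On the arrays with R848 the effectors summed to 59224 in wild type and 64704 in knockout, beside 31542 and 21148.5 untreated. A few bright probes weigh most in these sums. The brightest untreated, Oas1b, read 11020 in wild type and 10230 in knockout untreated, and 11310 and 10640 with R848. Both sums were higher with R848, so these arrays cannot show whether the resting difference repeats. With R848 the median of the effectors was 0.16, beside 0.03 over all genes, and 29 of 43 lay above zero. Of the 43, 3 were higher and 2 lower, beside 1.94% and 2.21% of all genes. Of the 15 effectors lower untreated, 11 lay above zero with R848 and 1, Ly6e (-1.02), was still lower by 2-fold. Under normexp 6 effectors were lower in place of 15.

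Antigen presentation was described last, beginning with MHC class II. Class II promoters carry a conserved Y box bound by the factor NF-Y, searched here as CTGATTGG on both strands of the same windows. It was found in 4 of 9 class II windows (44.4%), in 4.10% of all windows and in 0 of 38 effector windows. The stretches of an alpha chain and a beta chain gene are shown, with the Y box in capitals, since both genes were lower and both hold the box: H2-Aa (chr17:34287837-34287904, minus strand), with the box 51 bases before the start, and H2-Eb1 (chr17:34305775-34305842, plus strand), with the box 62 bases before it.
H2-Aa: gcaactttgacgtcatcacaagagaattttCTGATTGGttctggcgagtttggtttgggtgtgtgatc
H2-Eb1: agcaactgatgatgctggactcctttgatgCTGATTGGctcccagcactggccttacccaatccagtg

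Of 10 MHC class II genes, all measured on both arrays, 6 were lower and 0 higher, beside 3.21% and 2.83% of all genes, with a median of -1.07 beside 0.06 over all genes. The peptide-binding chain H2-Aa read 804 in wild type and 395 in knockout (-1.02). Its partner H2-Ab1 read 3694 and 1901 (-0.96, with 4 probes from -1.11 to -0.96). H2-Eb1, a beta chain, read 364 and 145 (-1.33). Cd74, the invariant chain that guides class II molecules to endosomes, read 3574 and 1643 (-1.12). H2-Oa and H2-Ob, which restrain peptide exchange, were lower too, at -1.54 and -1.11. The peptide exchange genes themselves diverged: H2-DMb2 read 130 and 42.5 (-1.61), H2-DMa 137 and 106 (-0.37) and H2-DMb1 462 and 514 (0.15). H2-DMb1 and H2-DMb2 are close copies, which the probes may not fully separate.

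The regulators of class II did not show differences of that size. Of 8 measured 0 were past 2-fold, with a median of -0.05. Ciita, the master activator of class II transcription, read 78.7 in wild type and 61.0 in knockout (-0.37), with 4 probes from -0.45 to 0.18. Rfx5, a subunit of the complex on the neighbouring X box, read 23.8 and 24.4. The enzymes that prepare peptides in endosomes all stood above zero, 7 of 7, with a median of 0.26 and 0 past 2-fold. Cathepsin L, Ctsl, read 9458 and 14670 (0.63), cathepsin S, Ctss, 32640 and 36890 (0.18), and the thiol reductase Ifi30 1747 and 2443 (0.48).

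With R848 the class II genes kept their direction. Their median there was -0.75 and 9 of 10 lay below zero. Beside 2.21% of all genes, 2 of the 10 were lower by 2-fold, H2-Eb1 (-1.12) and H2-Aa (-1.07). Their summed signal was 9288 in wild type and 4809 in knockout untreated, and 8884 and 5087 with R848. The lists of cells that carry much class II summed to 904 and 663 for conventional dendritic cells and to 1218 and 1191 for B cells, and the monocyte list summed as above. Their part in the class II difference was not tested. Under normexp 3 class II genes were lower in place of 6 and the median was -0.81.

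MHC class I was closer to equal. Of 18 heavy chain genes and B2m measured, 0 were past 2-fold and 16 lay below zero, with a median of -0.28. H2-K1 read 17780 in wild type and 12610 in knockout (-0.50), H2-D1 20370 and 17640 (-0.21), and the light chain B2m 9706 and 8108 (-0.26). Heavy chain genes are highly similar and a probe may read several of them. Among 13 genes of peptide loading and the immunoproteasome 1 was lower, beside 3.21% of all genes. This was Tap1, a subunit of the peptide transporter, at 114 and 51.6 (-1.14). Its other probe stood at -0.58. Of the 13 genes 11 lay below zero, and the median was -0.32. The immunoproteasome subunits Psmb9 and Psmb8 read 1550 and 879 (-0.82), and 964 and 622 (-0.63). Nlrc5, the activator of class I transcription, read 184 and 131 (-0.49). With R848 the loading list had a median of 0.04, with Tap1 at 0.04 as well.

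Costimulatory and checkpoint ligands had a median of 0.00 over 17 measured genes, with 2 lower and 0 higher, beside 3.21% and 2.83% of all genes. Tnfsf14, or LIGHT, read 136 in wild type and 49.0 in knockout. Cd40 read 15.3 and 6.61 (-1.21), with its probe in a marked area. Cd86 read 18.6 and 10.6 (-0.81) and its 3 probes ran from -1.22 to -0.81. Cd80 read 369 and 372, and the PD-1 ligand Cd274 188 and 287 (0.61).

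**Figure D4:**
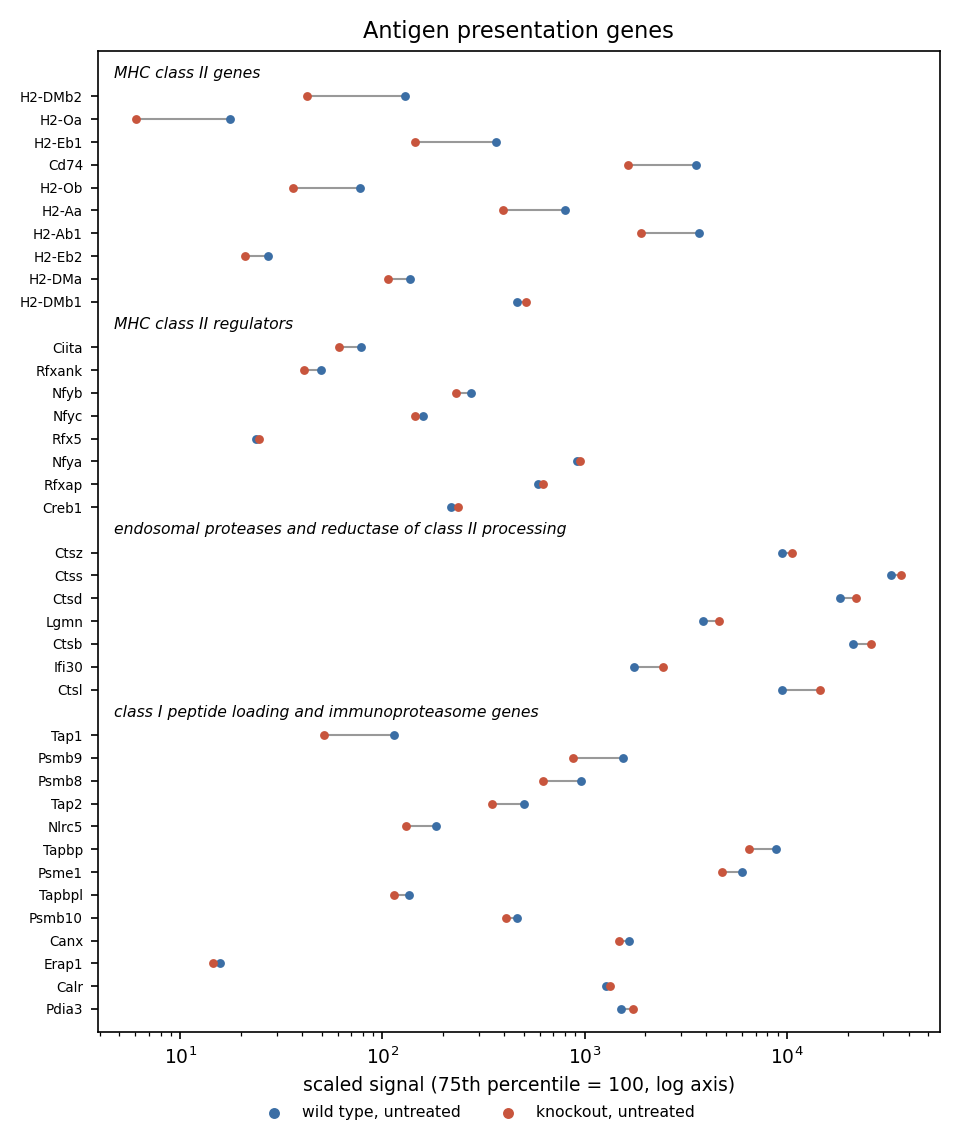
Scaled signal (log axis) of each measured gene of 4 antigen presentation lists on the untreated wild-type (blue) and knockout (red) arrays, ordered by their difference within a list. Red lies left of blue for 9 of 10 class II genes and right of blue for all 7 endosomal enzymes.

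**Figure D5:**
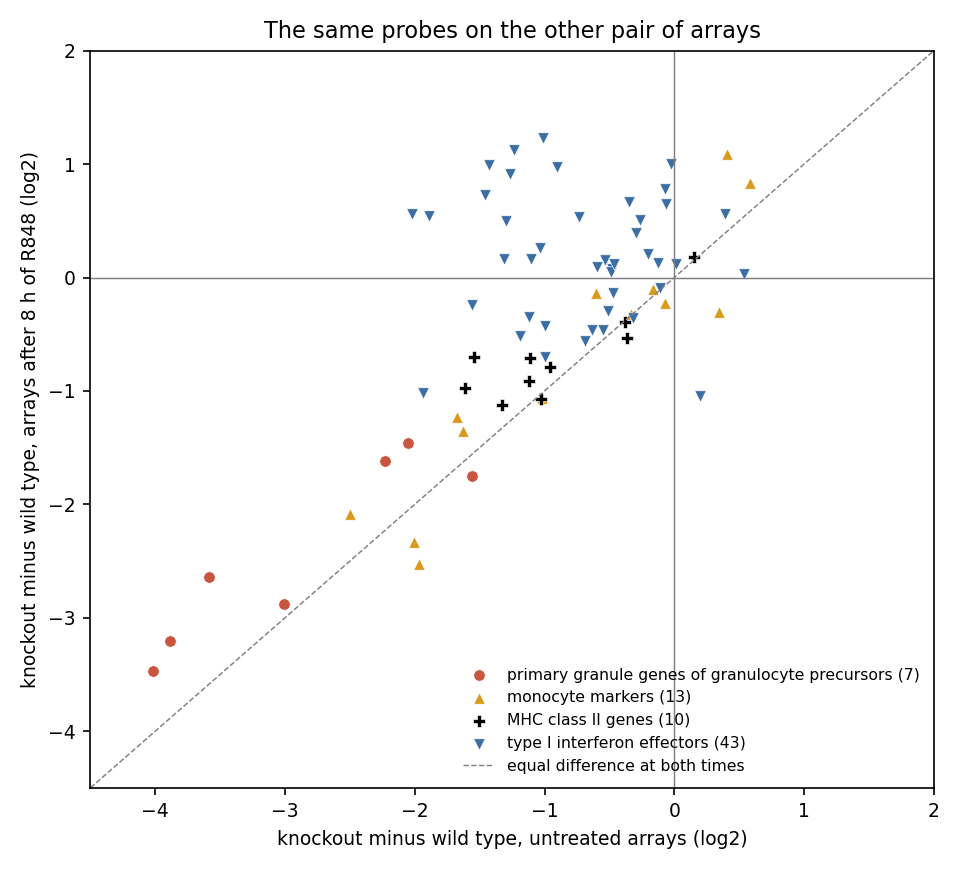
Log2 difference of knockout minus wild type on the untreated arrays (horizontal) and on the arrays after 8 h of R848 (vertical) for the members of 4 lists, with a dashed line of equal difference; these pairs share no array. All 7 primary granule genes lie below zero on both axes, whereas 29 of 43 interferon effectors lie above zero on the vertical axis.

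The largest differences were mostly shared with the lists above. Under the naming rule, which takes bright genes whose probes all go the same way outside marked areas, the 12 largest decreases were Mcpt8, Gria3, Saa3, Prss34, Ctsg, Mpo, Elane, Ms4a3, Plac8, Gata2, Nkg7 and Myb. Gria3, a glutamate receptor subunit, read 380 in wild type and 15.5 in knockout, 24.6-fold lower at its brightest probe, with its other probe at -0.64. Saa3, an acute phase protein of macrophages, read 557 and 24.1, 23.2-fold lower, and with R848 it read 24750 and 23120. Of these 12 genes Saa3 was the only one within 2-fold on the arrays with R848. Lower genes were often lower there too: of 651, 520 were measured with R848, and 177 of those were lower and 8 higher, beside 2.21% of all genes lower.

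Other bright genes were chosen for mention after their values were seen. Cd5l, a secreted macrophage protein, read 3457 in wild type and 613 in knockout (-2.49), and the adhesion molecule Vcam1 873 and 167 (-2.39). Both were lower with R848, at -2.49 and -1.71. Ifi206, a gene of the interferon-inducible p200 family, read 113 and 21.8 (-2.37) and stood at 0.03 with R848. Ly6a, or Sca-1, a progenitor antigen that interferon also induces, read 609 and 179.6 (-1.76).

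On the higher side the differences of bright genes were smaller. Of the 574 higher genes 375 were measured with R848, and 37 of those were higher and 6 lower, beside 1.94% of all genes higher there. The 12 largest increases under the rule were Neurod2, Iglv1, Adgrb1, Vsig8, Ntn1, Bsn, Itgax, F7, Adam19, Tmem63b, Krtap31-2 and Plb1. Ntn1, the guidance factor netrin-1, read 1048 in wild type and 2936 in knockout, 2.80-fold higher, and stood at 0.61 with R848. Itgax, which encodes CD11c, read 417 and 1156, 2.77-fold higher, with 3 probes from 0.63 to 1.72, and stood at 0.88 with R848. The protease gene Adam19 read 151 and 409, and the clotting factor gene F7 69.3 and 189. Iglv1, an immunoglobulin light chain segment, read 102 and 324 untreated and 32.4 and 211 with R848. Neurod2, a neuronal transcription factor, read 88.8 and 691 untreated and 64.4 and 103 with R848, so its high signal was on the untreated knockout array alone. Fgf16 read 103 on that array and was not well above background in wild type, at least 23.7-fold higher, and was not measured with R848. Iglv1 and Vsig8 were at least 2-fold higher on the arrays with R848 as well, and the other 10 of the 12 were not.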

How the data were processed

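Total RNA of 4 cultures was labelled with Cy3 and hybridised to 1-colour Agilent arrays. Agilent Feature Extraction 11.5.1.1 was used to read the arrays (submitters' processing notes). The deposited processed signal is a linear intensity with background and spatial trend removed and no scaling between arrays, per the file headers. In a table deposited by the authors, the intensity of 39374 spots equals that signal times 3.72 (wild type) or 4.06 (knockout) within 1% for 100% of the spots (column medians 705 and 720.0). The sources used here do not say what set these factors.

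Each array held 59305 spots for 56605 probes that are not controls. Outlier spots were left out (83 and 76). Log2 of the signal minus each array's 75th percentile was averaged over the spots of a probe, and each gene is represented by the probe brightest over the untreated arrays. A dimmer value not well above background was replaced by the array's lowest signal that was well above it (scaled 4.33 in wild type, 4.39 in knockout) or its own if higher, and the result is "at least". On the arrays with R848 the same probes were read. A marked area is one where at least 25% of probes within 40 scanner units exceeded the median of the other arrays by 1 or more (log2). Of the probes 40458 were named through Entrez gene IDs, symbols or accessions and the RefSeq gene table of GRCm38.p6, and 16147 were not.

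The naming rule takes Batf2, members of 37 gene lists, the 12 largest increases and decreases of bright genes with agreeing probes outside marked areas, and up to 5 bounds a direction. The members and lists were chosen with earlier results of these data known. A few list members are counted but not reported by name here. Alternatives were normexp (offset 50, on the median signal, as the mean signal was not in the files used here), other centring, probe filters, the mean over probes, the authors' table, leaving out marked areas and other thresholds. The calculation was tested on simulated data. Python 3.11.15, numpy 2.4.6, pandas 2.3.3, R 4.3.3 and limma 3.58.1 were used.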

Additional observations from a re-analysis of the deposited data

Results flagged for a closer look

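For 3 interferon-induced genes the genotypes differed in opposite directions untreated and with R848, and the change of direction was not tested, since each group has 1 array. Rsad2 stood at -1.01 untreated and 1.23 with R848 (knockout minus wild type, log2). Its other probe stood at -0.18 untreated, and its brightest probe at -0.98 under normexp. Slfn1 stood at -1.24 and 1.13. Cxcl10 stood at -1.60 untreated, as a bound because the knockout array was not well above background, and at 1.63 with R848. Groups of 1 array allow no check for a sample that stands apart.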

How the results depend on the processing

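No paired analysis was possible because each group has 1 array. Of 574 higher and 651 lower genes, normexp gave 117 and 222 (34.5% of called genes higher in place of 46.9%), probes well above background on both arrays 325 higher, no filter 1485 and 1185, the values the authors deposited 375 higher, 1.5-fold 1965 and 1605, 3-fold 154 and 242, and genes at or above the 75th percentile 64 and 201. Members lower under normexp were 6 type I interferon effectors, 3 MHC class II genes and 1 costimulation gene, in place of 15, 6 and 2. With the authors' values, 4 basophil and mast cell markers were lower in place of 7, with fewer genes in that table, and without marked areas 1 costimulation gene was lower, as Cd40 is left out. Reversed were Gbp8 with the mean over probes (0.36) and Hoxa9 in the authors' table (-0.90), genes whose probes disagree. Of 97 named genes past 2-fold, 61 stayed so under normexp and 82 with the mean over probes, and 85 of the 86 in the authors' table; median centring, quantile normalization, the other percentile and no filter kept all 97. Dim signals limit part of the calls: 249 of the higher and 150 of the lower genes are bounds. Without replicates, the variation between cultures is not covered.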

Other observations

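Gene groups outside composition, interferon and presentation also differed, given here as values. Acute phase and antimicrobial genes were lower in 5 of 13 cases (median -0.39), beside 3.21% of all genes. Haptoglobin, Hp, read 1780 in untreated wild type and 574 in knockout, and Wfdc21 2093 and 801, and both were lower with R848 (-1.35 and -1.10). The complement genes C3 and Cfb read 3270 against 746 and 196 against 40.1, at -2.13 and -2.29, and stood at -0.89 and -0.11 with R848. C1qa, C1qb and C1qc, the subunits of the recognition molecule of complement, stood at -0.62, -0.05 and -0.15. The Fc receptor gene Fcgr3 read 1210 and 2024 (0.74).

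Alternative activation genes were lower in 4 of 13 cases, beside 3.21% of all genes (median -0.35, from -0.69 with the mean over probes to -0.21 in the authors' table). These were Cd163, the lectin Clec10a (573 and 207), Chil3 and Arg1, the last as a bound of -1.03. The mannose receptor Mrc1, often used as a marker of this state, read 111 and 167 (0.59). Among surface pattern receptors, the scavenger receptor Marco read 413 in wild type and 95.1 in knockout untreated (-2.12), and 27750 and 34430 with R848 (0.31). The fungal receptor Clec7a read 2420 and 4621 untreated (0.93) and 1245 and 3537 with R848 (1.51). Of 16 cytokines measured 1 was higher and 0 lower, beside 2.83% and 3.21% of all genes. The higher one was the interleukin-1 receptor antagonist Il1rn, at 159.9 and 324 (1.02). Bright genes higher in the knockout also included Spp1, osteopontin, at 4732 and 9829, and Plau, urokinase, at 333 and 847.6. The 12 reference genes had a median of 0.00, from -0.54 (Tbp) to 0.60 (Gusb).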
